A study of Sus scrofa with 19 samples.

Results

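Messenger RNA levels of 9 components of insulin and insulin-like growth factor (IGF) signalling were described in the myocardium of 19 pigs: the ligands IGF1 and IGF2, the receptors INSR and IGF1R, the adaptors IRS1 and IRS2, the phosphoinositide 3-kinase (PI3K) subunits PIK3CA and PIK3R1, and the kinase AKT2. The members were a fixed list of symbols, found in the gene table of the authors and mapped by Ensembl identifier to the raw count files, in which all 9 of 9 were present among 25879 genes. All 9 passed the filter on low counts, which kept 13552 genes. In each of 3 cycles, 5 pigs received doxorubicin (DOX) and 5 its liposomal form Myocet (MYO), at 60 mg/m2 body surface, with tissue taken from the anterior wall after 3 months because the animals were in poor health. In 3 pigs the left anterior descending coronary artery was occluded by balloon for 90 min and reperfused, with tissue from the posterior wall after 6 months (RemoLV), and in 3 pigs a stent narrowed the aortic isthmus for 6 months as a pressure overload (Hyper). The 3 Control pigs had anterior wall tissue taken at 6 months. The sample descriptions call them sham-operated and the methods untreated. All were described as female large white pigs, and 1 poly(A)-selected library was sequenced per pig.

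Insulin and the IGFs bind receptor tyrosine kinases, which phosphorylate the IRS adaptor proteins. These recruit PI3K, a dimer of a catalytic and a regulatory subunit, whose lipid product brings AKT kinases to the membrane, and AKT in turn acts on FoxO transcription factors, on the kinase mTOR and on the glucose transporter GLUT4. In heart muscle the pathway is known for its part in glucose uptake and in growth of cardiomyocytes.

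The names of the libraries conflicted between the deposits. Every column of expression values in the table matched exactly 1 count file, but 8 of 19 carried another group: the columns named Control matched the 3 files labelled RemoLV, those named RemoLV matched the files labelled Control, and 1 DOX and 1 MYO column were exchanged. Groups are given here by file label, and every comparison was repeated with the table names. In the paper, clustering placed RemoLV with Hyper and apart from Control. Here, at an adjusted p of at most 0.05 with edgeR, Hyper against Control called 0 genes by file label and 4856 by table name. RemoLV against Hyper called 4818 by file label and 0 by table name. Which naming is right was not tested. The libraries labelled RemoLV also stood apart in tissue markers. In these 3 libraries the ventricular light chain gene MYL2 was at 18.6 to 115 CPM (counts scaled to a common library size), against 8976 CPM or more in the other libraries, and the atrial light chain gene MYL4 at 6029 to 8130 CPM, against 21.9 CPM or less, so the defining marker of ventricular myocardium was low there. Over the 8 atrial markers measured the summed level was 9738 to 13079 CPM in these libraries and 173 to 2481 CPM in the others, and over 8 fibroblast markers it was 10730 to 12395 CPM against 1572 to 7179 CPM. Of the fibroblast markers, DCN, COL1A2, COL3A1 and PDGFRA lay above all other libraries, with COL3A1 at 5963 to 6941 CPM. COL1A1, LUM, POSTN and TCF21 overlapped other libraries, with LUM at 122 to 144 CPM against 72.1 to 216 CPM. Transcripts of 4 Y-chromosome genes summed to 172 to 252 CPM in the 10 DOX and MYO libraries and to at most 0.226 CPM in the other groups, against the label of female pigs, so sex, follow-up time and drug cannot be told apart between these 10 pigs and the rest. Mitochondrial genes held 10.5% and 10.6% of the counts in Control replicates 1 and 3, and 3.27% to 9.03% in the other libraries. Library totals ran from 9527710 to 20370209 counts, and the rarest member, IGF1, had 35 to 180 counts per library.

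Expressed per kilobase of the longest annotated transcript, the ligand gene IGF2 was the most abundant member, at 66.7 CPM per kb over all libraries, followed by AKT2 at 17.2, IRS2 at 8.74, PIK3R1 at 7.16, INSR at 5.08, IGF1R at 4.32, IRS1 at 4.10, PIK3CA at 2.85 and IGF1 at 0.698 CPM per kb. The order below AKT2 differed between groups: IRS2 followed AKT2 in DOX (15.0) and MYO (10.1), but in Control it stood at 5.27 CPM per kb, below INSR (11.3), PIK3R1 (10.7) and IGF1R (8.6), in Hyper at 4.16, below the same 3 genes, and in RemoLV at 4.11, below PIK3R1 (4.94). The members lie on 9 pig loci of the assembly Sscrofa11.1. INSR spans chr2:71797209-71939923 on the plus strand, IGF1R chr1:137383623-137691038 on the minus strand and PIK3R1 chr16:46434757-46523626 on the plus strand. IGF1 lies at chr5:81762027-81909253 on the plus strand, and IGF2 at chr2:1469183-1496417, IRS1 at chr15:128245846-128307321, IRS2 at chr11:76626158-76654639 and AKT2 at chr6:48555785-48620472 on the minus strand. Genes annotated on the opposite strand overlap IGF1 and IGF1R, and the counting used strand. The group means of INSR, IGF1R and PIK3R1 stood in the same order, highest in Control, then Hyper, DOX, MYO and RemoLV. The promoter windows of these 3 genes, from 250 bases before to 50 bases after the annotated start of the gene, are shown for that reason, read from the RefSeq assembly, with capitals marking the GC box GGGCGG on either strand.
INSR: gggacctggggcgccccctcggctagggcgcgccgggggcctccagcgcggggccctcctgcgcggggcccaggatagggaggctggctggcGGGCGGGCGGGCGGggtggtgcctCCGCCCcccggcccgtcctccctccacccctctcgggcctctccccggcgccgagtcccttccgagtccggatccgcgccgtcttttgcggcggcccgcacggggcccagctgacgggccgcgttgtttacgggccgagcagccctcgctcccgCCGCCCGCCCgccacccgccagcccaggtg
IGF1R: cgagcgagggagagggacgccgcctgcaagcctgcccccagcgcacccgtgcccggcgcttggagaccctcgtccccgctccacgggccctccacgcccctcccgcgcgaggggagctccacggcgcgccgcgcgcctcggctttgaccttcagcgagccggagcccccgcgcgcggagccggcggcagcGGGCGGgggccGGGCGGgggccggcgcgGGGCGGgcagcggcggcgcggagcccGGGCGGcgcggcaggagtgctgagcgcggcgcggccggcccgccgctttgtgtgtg
PIK3R1: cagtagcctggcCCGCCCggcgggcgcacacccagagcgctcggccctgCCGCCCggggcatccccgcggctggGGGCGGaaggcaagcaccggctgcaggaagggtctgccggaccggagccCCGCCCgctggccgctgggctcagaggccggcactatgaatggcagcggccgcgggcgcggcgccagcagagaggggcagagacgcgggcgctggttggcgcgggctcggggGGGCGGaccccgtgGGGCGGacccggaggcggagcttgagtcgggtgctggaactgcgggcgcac
The windows lie at chr2:71796959-71797258, chr1:137690989-137691288 and chr16:46434507-46434806. G and C made up 80.7%, 82.7% and 78.3% of them, against a median of 58.7% over 19531 pig promoter windows of the same length. In the other members, whose group means stood in other orders, the share ran from 40% in IGF1 to 82% in IRS2. The GC box occurred 6 times in INSR, with overlapping copies, 4 times in IGF1R and 6 times in PIK3R1, and at least 1 time in 50.6% of all windows. IRS2 held 5 matches, IRS1 2 and IGF2 1, and the windows of IGF1, PIK3CA and AKT2 held none. The FoxO core GTAAACA, found in 2.65% of all windows on either strand, had 1 match among the 9 members, on the reverse strand of INSR 10 bases before the start. These matches are descriptions of the letters and were not tested as binding sites.

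By file label, the anthracycline groups differed from Control in most members, with lower receptor and PI3K subunit mRNA and higher AKT2 mRNA. A gene was called at an adjusted p of at most 0.05 over all 13552 genes. Where the libraries of groups are said to lie apart, the share of all genes that do so was not counted. In DOX against Control, 3 of 9 members were called higher and 6 lower, where 21% of all genes were called higher and 21.1% lower. MYO against Control gave 1 higher and 6 lower, with 20.7% and 21.7% over all genes. RemoLV against Control gave 1 higher and 5 lower, with 23.1% and 24%. The median log2 fold change of the members was -0.71, -0.81 and -0.60 in these comparisons, beside 0.03, 0.02 and 0.02 over all genes. By table name these medians were 0.24, 0.29 and 0.60, beside 0.01, 0.01 and -0.02, and with library totals -0.28, -0.38 and -0.07, beside 0.45, 0.44 and 0.52. Scaling to library totals in place of TMM gave 3 higher and 3 lower in DOX (41.5% and 5.2% over all genes), 3 and 4 in MYO (40.6% and 5.56%), and 3 and 3 in RemoLV (45.6% and 7.66%). Without Control replicate 2 the members called in DOX numbered 6, while the number of genes called over all genes was 6164 in place of 5704.

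Hyper against Control called no member, and 0% of all genes in either direction, with the edgeR quasi-likelihood test. In that comparison the unadjusted p was at most 0.05 for 4 members and for 2418 genes, and DESeq2 also called no member, with 317 genes in all. Without Control replicate 2, 4 members were called in Hyper, all of them lower, beside 18.4% of all genes, and without Hyper replicate 1 only PIK3CA was, beside 5.6%. DOX against MYO likewise called no member and 0% of all genes, under both sets of names, where 1 member and 960 genes passed 0.05 before adjustment by file label and 2 genes, no member among them, called by DESeq2. RemoLV against Hyper called 1 member higher and 3 lower, with 17% and 18.6% over all genes, and 2 higher and 3 lower with library totals (30.4% and 7.1%). DOX and MYO together against Hyper, the comparison that touches neither of the groups whose names were exchanged as a whole, called 3 members higher and 4 lower, with 15.8% and 16.9% over all genes, and 3 higher and 3 lower with library totals (28.7% and 5.61%). Without Hyper replicate 1, 4 of these 7 calls held, those of IRS1, AKT2, IGF1R and IGF2, while the genes called over all genes fell from 4422 to 2530 (18.3%).

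With the table names the counts were 3 higher and 3 lower for DOX, with 15% and 14.6% of all genes, and 1 higher and 3 lower for MYO, with 14.8% and 14.4%. They were 5 higher and 1 lower for RemoLV, with 24% and 23.2%, and 3 higher and 1 lower for Hyper, with 18.7% and 17.2%. RemoLV against Hyper then called no member and 0% of all genes with edgeR, where 4 members and 2465 genes passed 0.05 before adjustment. DOX and MYO against Hyper again called 3 members higher and 4 lower, with 15.8% and 16.9%, and these were the same 7 members. The log2 fold changes of the members were then close to those by file label, at 0.74 for IRS1, 1.55 for IRS2, 0.44 for AKT2, -0.82 for IGF1R, -0.69 for IGF2, -0.49 for PIK3CA and -0.74 for PIK3R1.

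**Figure D1:**
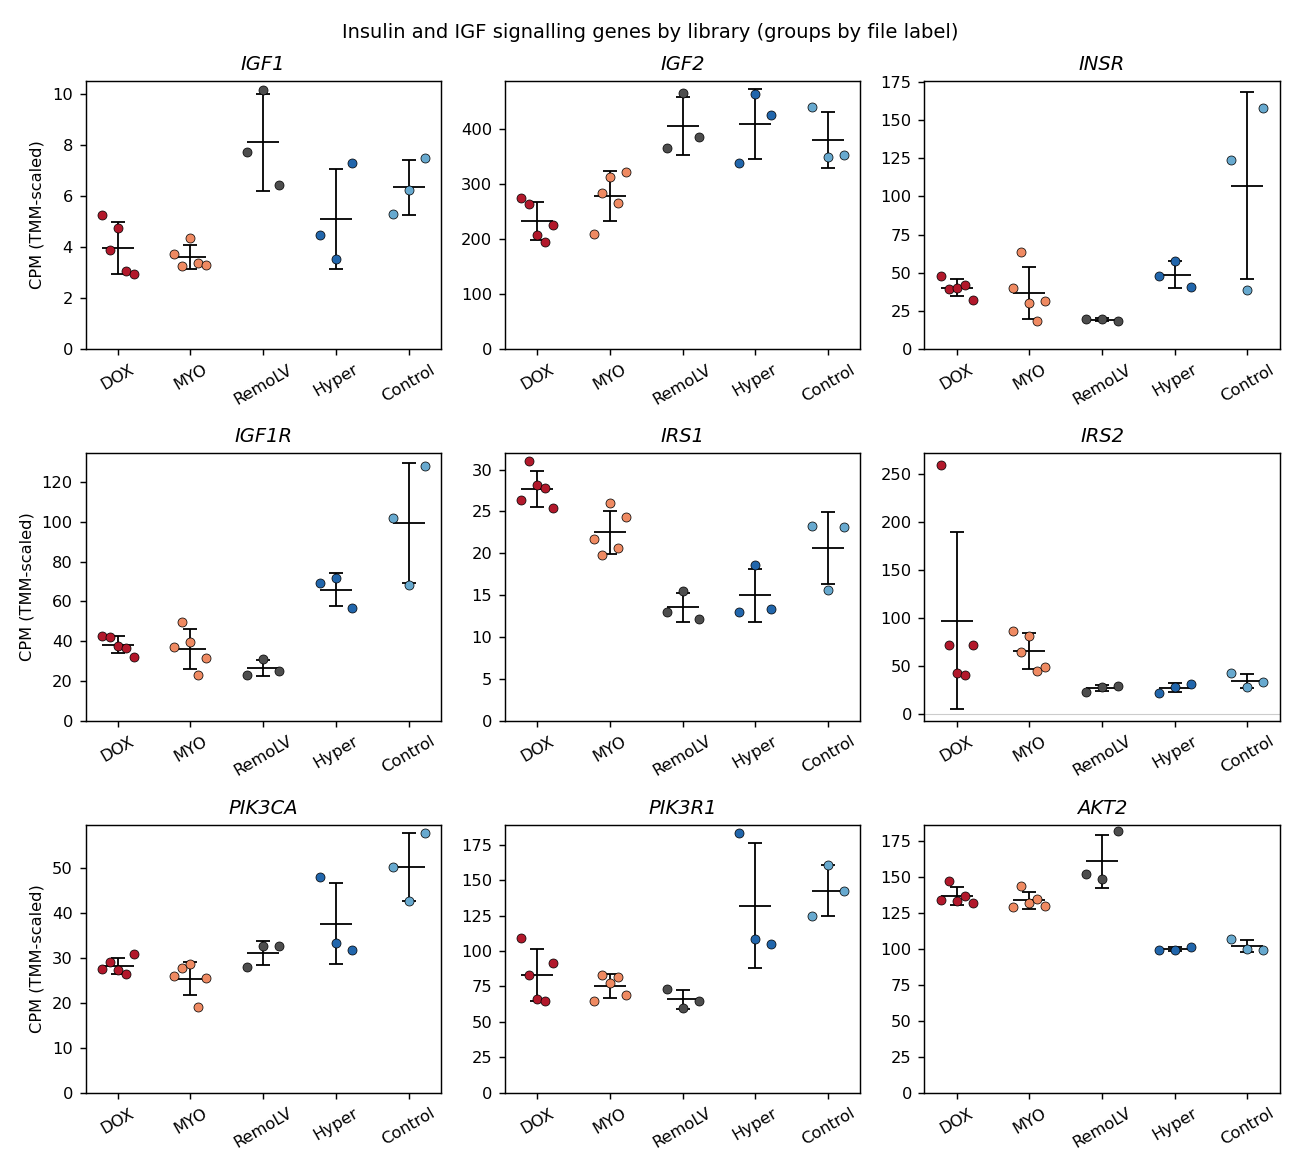
Level of each member per library, in CPM scaled by TMM on linear axes that start at or below 0, with libraries grouped by file label. Points are libraries, and bars give the mean and SD of each group. The 10 DOX and MYO libraries lie above every Hyper library for IRS1, IRS2 and AKT2, and IRS2 in DOX replicate 1 stands alone at 259.6 CPM. How many of all genes separate in this way was not counted.

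Of the ligands, both growth factor genes read lowest in the anthracycline groups. IGF2, the predominantly fetal growth factor that is also expressed in adult pig tissue, was lower in DOX and MYO than in Control and Hyper, whereas IGF1, the growth hormone-dependent factor, was called lower only against Control. IGF2 was at 276, 264, 208, 194 and 226 CPM in DOX replicates 1 to 5, and at 209, 284, 313, 266 and 322 CPM in MYO. In RemoLV it was at 367, 466 and 387 CPM, in Hyper at 339.5, 465 and 426 CPM, and in Control at 441, 349 and 353 CPM. All 10 DOX and MYO libraries lay below all 9 others. The log2 fold change of IGF2 against Control was -0.71 ± 0.15 (SE, adjusted p = 0.00129) in DOX and -0.45 ± 0.15 (adjusted p = 0.023) in MYO, and against Hyper that of both together was -0.68 ± 0.13 (adjusted p = 0.000819). The MYO call was lost without MYO replicate 1 (adjusted p = 0.0528) or Control replicate 1 (0.133), and with scaling to library totals IGF2 was called in neither anthracycline group against Control, at -0.28 in DOX and -0.02 in MYO. Under the table names IGF2 was again lower, by -0.82 in DOX (adjusted p = 0.000376) and by -0.53 in MYO (adjusted p = 0.0112). RemoLV and Hyper were not called against Control, at 0.09 (95% interval -0.27 to 0.45) and 0.11 (-0.25 to 0.46), but with library totals RemoLV was called, at 0.61 (adjusted p = 0.00727).

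IGF1 was at 5.24, 3.90, 4.73, 3.06 and 2.94 CPM in DOX and at 3.72, 3.26, 4.37, 3.38 and 3.30 CPM in MYO. In RemoLV it was at 7.74, 10.2 and 6.42 CPM, in Hyper at 4.47, 3.54 and 7.31 CPM, and in Control at 5.30, 6.24 and 7.48 CPM. The anthracycline libraries lay below the 3 Control libraries, DOX replicate 1 by a narrow margin, and Hyper overlapped both. The log2 fold change against Control was -0.67 ± 0.24 in DOX (adjusted p = 0.0341) and -0.81 in MYO (adjusted p = 0.0127). The DOX call was lost without any one of DOX replicates 2, 4 or 5 or Control replicates 2 or 3 (adjusted p = 0.0547 to 0.16), and the MYO call without Control replicate 3 (0.0778). With library totals neither was called, at -0.25 in DOX (adjusted p = 0.446) and -0.38 in MYO (0.245), while RemoLV was called higher than Control, at 0.86 (0.0179). Under the table names the differences were -0.97 in DOX (adjusted p = 0.00422) and -1.23 in MYO (adjusted p = 0.000721). Against Hyper, DOX and MYO together differed by -0.43 (95% interval -0.89 to 0.03; adjusted p = 0.14). RemoLV against Hyper stood at 0.67 (adjusted p = 0.0629) and passed the threshold without RemoLV replicate 3 (0.0494) or Hyper replicate 3 (0.00983) and with library totals (0.98, adjusted p = 0.013).

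The receptor genes INSR, which encodes the insulin receptor, and IGF1R, which encodes the type 1 IGF receptor, read highest in the libraries labelled Control and lowest in those labelled RemoLV. INSR was at 47.6, 39.3, 40.2, 42.2 and 32.1 CPM in DOX and at 40.0, 63.6, 30.4, 18.4 and 31.8 CPM in MYO. In RemoLV it was at 19.8, 20.0 and 18.4 CPM, in Hyper at 47.8, 58.0 and 40.4 CPM, and in Control at 124, 38.8 and 158 CPM. Control replicate 2 lay within the DOX range and below every Hyper library, while replicates 1 and 3, those with the highest mitochondrial shares, lay above every other library. The part of the mitochondrial share in this spread was not tested. INSR was lower than Control by log2 fold changes of -1.40 ± 0.34 in DOX (adjusted p = 0.00299), -1.53 in MYO (adjusted p = 0.00159) and -2.46 ± 0.41 in RemoLV (adjusted p = 0.000109). In Hyper the difference was -1.13 ± 0.39 (adjusted p = 0.168), and it was called without Control replicate 2, at -1.53 (adjusted p = 0.0035). With the table names every one of these signs turned, to 1.11 in DOX (adjusted p = 0.0268), 0.86 in MYO (0.0777), 2.46 in RemoLV (9.45e-05) and 1.33 in Hyper (0.0131). RemoLV against Hyper was -1.33 (adjusted p = 0.0143), and 0.0501 without Hyper replicate 2. DOX and MYO against Hyper gave -0.34 (95% interval -0.98 to 0.31), and INSR was thus not called in the comparison that the names leave nearly unchanged.

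IGF1R was at 42.8, 42.1, 37.7, 36.7 and 32.4 CPM in DOX and at 36.9, 49.8, 39.6, 23.0 and 31.7 CPM in MYO. In RemoLV it was at 23.3, 31.3 and 25.1 CPM, in Hyper at 69.5, 71.9 and 56.5 CPM, and in Control at 102, 68.3 and 128 CPM. Every DOX, MYO and RemoLV library lay below every Hyper and Control library. DOX and MYO together were lower than Hyper by a log2 fold change of -0.82 ± 0.18 (adjusted p = 0.00191), and this call held without each library in turn. Against Control by file label, IGF1R was lower by -1.37 ± 0.20 in DOX (adjusted p = 5.54e-05), -1.45 in MYO (3.52e-05) and -1.90 in RemoLV (7.47e-06), and stood at -0.59 in Hyper (0.202, and 0.0196 without Control replicate 2). Under the table names the signs were positive, at 0.56 in DOX (adjusted p = 0.0508), 0.41 in MYO (0.151), 1.90 in RemoLV (6.24e-06) and 1.31 in Hyper (0.000272). The comparison of RemoLV with Hyper gave -1.31 by file label (adjusted p = 0.000318).

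The adaptor genes ran opposite to IGF1R between the anthracycline groups and Hyper. IRS1, the first described insulin receptor substrate, was at 26.3, 31.0, 28.1, 27.7 and 25.4 CPM in DOX and at 21.7, 19.8, 26.0, 20.6 and 24.4 CPM in MYO. It was at 12.9, 15.5 and 12.2 CPM in RemoLV, at 13.1, 18.7 and 13.3 CPM in Hyper, and at 23.2, 15.7 and 23.1 CPM in Control. All 10 anthracycline libraries exceeded all Hyper and RemoLV libraries, and Control replicate 2 lay apart from the other Control libraries and inside the Hyper range. DOX and MYO were higher than Hyper by 0.73 ± 0.14 (adjusted p = 0.000826). Against Control the DOX difference was 0.42 ± 0.15 (adjusted p = 0.0314), and it was lost without Control replicate 2 (0.26, adjusted p = 0.171), DOX replicate 2 (0.0667) or DOX replicate 3 (0.0515). MYO stood at 0.12 (adjusted p = 0.53). With the table names IRS1 was higher than Control in DOX by 0.99 (adjusted p = 0.000245) and in MYO by 0.77 (0.0019). RemoLV was lower than Control by -0.60 by file label (adjusted p = 0.00735) and higher by 0.60 by table name (0.0111). With library totals the RemoLV value was -0.07 (adjusted p = 0.739), and MYO was called higher than Control, at 0.58 (0.00319).

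IRS2, the adaptor gene that FoxO factors are known to induce, had the largest SD of any member in any group, 92.0 CPM in DOX. Without DOX replicate 1 that SD was 17.4 CPM. IRS2 was at 259.6, 71.4, 42.8, 40.2 and 71.8 CPM in DOX and at 86.8, 64.9, 81.4, 44.1 and 48.7 CPM in MYO. In RemoLV it was at 22.8, 27.8 and 29.2 CPM, in Hyper at 22.0, 27.8 and 31.1 CPM, and in Control at 42.2, 27.4 and 32.6 CPM. The Hyper and RemoLV libraries all lay below the 10 anthracycline libraries, and Control replicate 1 reached the lower end of DOX. DOX and MYO were higher than Hyper by 1.56 ± 0.45 (adjusted p = 0.0128), and by 1.16 (0.00141) without DOX replicate 1. Leaving out Hyper replicate 1 gave 1.44 (adjusted p = 0.0781). DOX exceeded Control by 1.51 ± 0.48 (adjusted p = 0.0164), by 0.72 (0.0325) without DOX replicate 1, and was not called without Control replicate 2 (0.0548) or 3 (0.0623) or in a fit of only these 2 groups (1.52, adjusted p = 0.0801). The other 4 DOX libraries had a mean of 56.6 ± 17.4 CPM (SD, n = 4) against 65.2 ± 19.0 CPM in MYO (SD, n = 5). MYO stood at 0.94 against Control (adjusted p = 0.112) and was called without DOX replicate 1 in the shared model (0.93, adjusted p = 0.00627), with library totals (1.38, adjusted p = 0.0158) and in a fit of only MYO and Control (0.92, 0.0146). With the table names DOX exceeded Control by 1.91 (adjusted p = 0.0054) and MYO by 1.23 (0.053).

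The PI3K subunit genes were lower in the anthracycline groups than in Hyper and Control. PIK3R1 encodes the regulatory subunit p85 alpha and PIK3CA the catalytic subunit p110 alpha. PIK3R1 was at 109, 83.4, 66.2, 64.9 and 91.8 CPM in DOX and at 64.4, 83.3, 77.4, 81.9 and 68.9 CPM in MYO. In RemoLV it was at 73.4, 59.8 and 64.4 CPM, in Hyper at 183, 108 and 105 CPM, and in Control at 124, 161 and 142 CPM. DOX replicate 1 entered the Hyper range from below, and Hyper replicate 1 lay well above its group. DOX and MYO were lower than Hyper by -0.74 ± 0.16 (adjusted p = 0.00193), and by -0.43 (0.0622) without Hyper replicate 1. Against Control the differences were -0.78 in DOX (adjusted p = 0.00254), -0.92 in MYO (0.000679), -1.11 in RemoLV (0.000336) and -0.11 in Hyper (0.81; 95% interval -0.54 to 0.32). With library totals the DOX value was -0.38 (adjusted p = 0.122). The table names turned them to 0.24 in DOX (adjusted p = 0.367), 0.29 in MYO (0.27), 1.11 in RemoLV (0.000386) and 1.00 in Hyper (0.00131). RemoLV was lower than Hyper by -1.0 by file label (adjusted p = 0.00115).

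PIK3CA was at 27.5, 29.0, 27.3, 26.5 and 30.9 CPM in DOX and at 26.0, 27.8, 28.6, 19.1 and 25.5 CPM in MYO. It was at 27.9, 32.6 and 32.7 CPM in RemoLV, at 48.0, 33.3 and 31.8 CPM in Hyper, and at 50.2, 42.7 and 57.8 CPM in Control. The highest anthracycline library, DOX replicate 5, lay just below the lowest Hyper library. DOX and MYO were lower than Hyper by -0.49 ± 0.13 (adjusted p = 0.00684), but by -0.28 (0.143) without Hyper replicate 1 and -0.23 (0.163) with scaling to library totals. Against Control, PIK3CA was lower by -0.83 in DOX (adjusted p = 0.000223), -0.98 in MYO (5.23e-05) and -0.69 in RemoLV (0.00199), with -0.41 in Hyper (0.204; called without Hyper replicate 1, 0.0319, or Control replicate 2, 0.0421). With library totals the RemoLV value was -0.16 (adjusted p = 0.393). By table name it was at -0.19 in DOX (adjusted p = 0.357), -0.23 in MYO (0.259) and 0.69 in RemoLV (0.00252). The gene, at chr13:117193935-117282151 on the plus strand, overlaps LOC110256340 on the same strand in the annotation, so reads in the shared stretch are uncertain.

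AKT2, the AKT kinase known for its role in insulin-stimulated glucose uptake, varied less between libraries, relative to its mean, than the other members in every group but RemoLV. It was at 134, 147, 134, 137 and 132 CPM in DOX and at 129, 144, 132, 135 and 129.6 CPM in MYO. RemoLV had 152, 148.5 and 182 CPM, Hyper 99.1, 99.0 and 101 CPM, and Control 107, 99.7 and 99.3 CPM. The groups formed 3 separate levels, with RemoLV above the anthracycline groups and these above Hyper and Control. DOX and MYO were higher than Hyper by 0.44 ± 0.07 (adjusted p = 0.000254), and than Control by 0.42 in DOX (0.000594) and 0.39 in MYO (0.00104). RemoLV exceeded Control by 0.66 (adjusted p = 1.83e-05) and Hyper by 0.69 (1.44e-05). Hyper and Control differed by -0.03 (95% interval -0.22 to 0.16). Since the highest libraries are those named Control in the table, the table names gave -0.24 in DOX (adjusted p = 0.0302), -0.26 in MYO (0.0203), -0.66 in RemoLV (1.87e-05) and -0.69 in Hyper (1.47e-05).

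**Figure D2:**
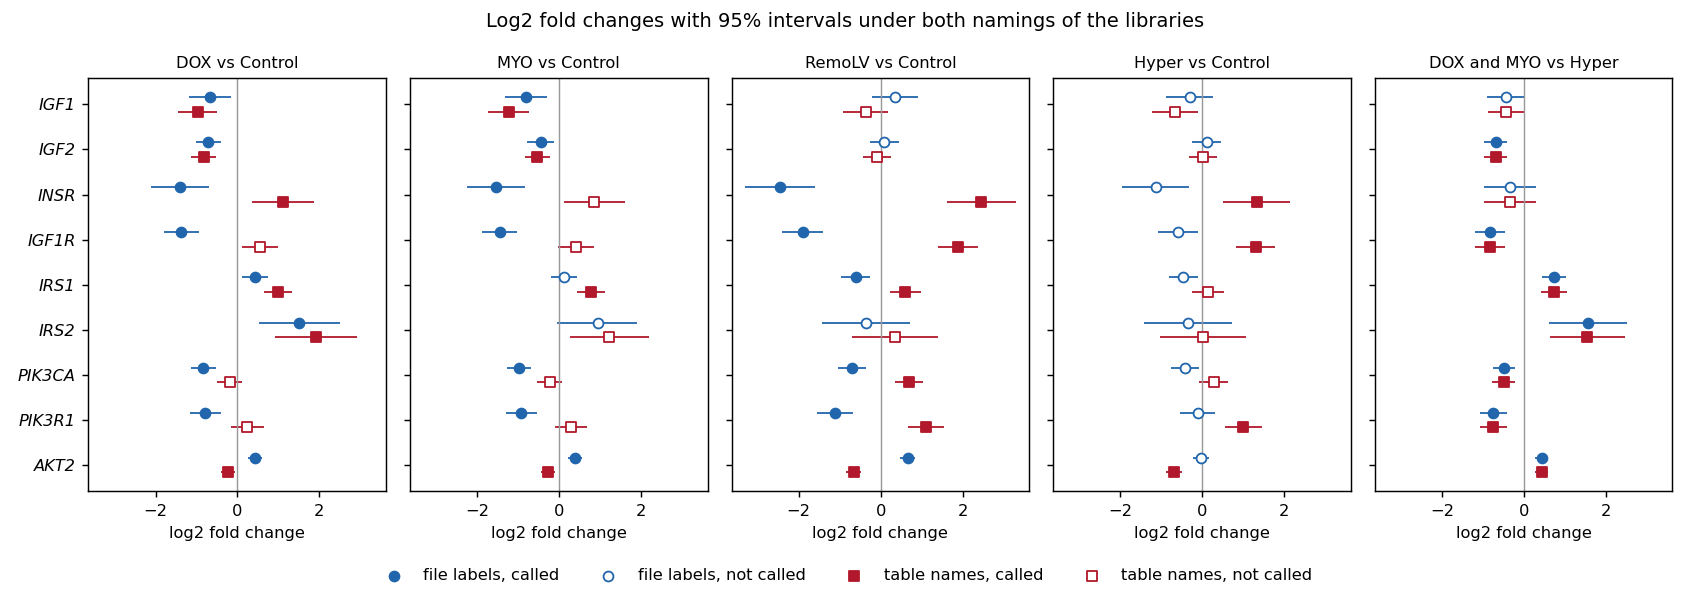
Log2 fold change of each member with its 95% interval, in 5 comparisons, by file label (circles) and by table name (squares), with filled symbols for an adjusted p of at most 0.05. The symbols of INSR, IGF1R, PIK3R1 and AKT2 sit on opposite sides of 0 under the 2 namings in DOX, MYO and RemoLV against Control, and those of all members coincide in DOX and MYO against Hyper.

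The size of the differences depended on the scaling of the libraries. TMM factors were 0.735, 0.965 and 0.696 in Control replicates 1 to 3, 0.89, 0.835 and 0.954 in Hyper, and 0.972 to 1.18 in the other groups. Scaling to library totals moved the median log2 fold change of all genes against Control to 0.45 for DOX, 0.44 for MYO, 0.52 for RemoLV and 0.17 for Hyper, 0.36 in RemoLV against Hyper and 0.29 in DOX and MYO against Hyper. The differences given here by file label with TMM scaling are relative to a median of all genes of 0.00 to 0.03, and those by table name to one of -0.02 to 0.02. In bulk tissue, fewer cells of a type and less RNA per cell cannot be told apart. In the comparison in which 7 members were called, the 8 fibroblast markers summed to 4616 to 7179 CPM in DOX and MYO and to 1572 to 3934 CPM in Hyper. The collagen genes COL1A1, COL1A2 and COL3A1 did not overlap between these groups, with COL3A1 at 2483 to 3417 CPM against 667 to 1914 CPM, whereas DCN overlapped, at 341 to 546 CPM against 331 to 571 CPM, and so did LUM, PDGFRA, POSTN and TCF21. The 6 adipocyte markers summed to 1103 to 1798 CPM and 1569 to 2419 CPM, of which LPL made up 979 to 1733 CPM and 1435 to 2280 CPM, and the defining markers ADIPOQ, PLIN1, LEP and CIDEC were near 0 in most libraries, with LEP at 0 to 0.0848 CPM. Of the 8 cardiomyocyte markers, TNNT2 and TNNC1 were lower in DOX and MYO than in Hyper without overlap, MYBPC3 was higher without overlap, at 5928 to 7517 against 5555 to 5916 CPM, and ACTN2, RYR2, TPM1, CASQ2 and DES overlapped. TNNT2 was at 7371 to 10542 CPM in DOX and MYO and 11284 to 13748 CPM in Hyper, and TNNC1 at 4317 to 5067 against 5993 to 6637 CPM. The muscle creatine kinase gene CKM was at 4015 to 5773 against 8327 to 10630 CPM. Of the 6 endothelial markers, KDR and EMCN were higher and TEK lower without overlap, and of the 6 smooth muscle and pericyte markers CNN1 was higher and RGS5 lower. The ventricular marker IRX4 and the atrial marker MYL4 were higher without overlap, each 1 of 8 in its list, and all 6 macrophage and leukocyte markers overlapped. Markers moved against Control by file label as well. There the fibroblast markers COL1A1, COL1A2, COL3A1 and POSTN were higher in DOX and MYO without overlap, with COL3A1 at 905 to 1778 CPM in Control, and so were PDGFRB, EMCN, CSF1R, MYBPC3, MYL7 and IRX4. TNNC1, RYR2, MYL2, TEK, RGS5, CD163, LPL and CKM were lower without overlap, with LPL at 1946 to 3837 CPM in Control, and the remaining markers apart from the Y-linked genes overlapped. HBB, the beta-globin gene of red blood cells, was at 325 and 337 CPM in 2 of the Control libraries and at 35.1 CPM in the other, and at 8.40 to 189 CPM in DOX and MYO. Over all genes, 32.6% were called in DOX and MYO against Hyper, 42.1% in DOX against Control and 42.4% in MYO against Control. The share of all genes without overlap was not counted. The part of these marker differences in the members' values was not tested.

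DOX and MYO, free and liposomal forms of the same drug at the same dose, were compared in all 9 members. The log2 fold changes of DOX against MYO ran from -0.26 for IGF2 (95% interval -0.53 to 0.02) to 0.58 for IRS2 (-0.24 to 1.39), and the smallest adjusted p was 0.695, for IRS1 at 0.30 (0.03 to 0.57). For AKT2 the interval was -0.12 to 0.18, for PIK3CA -0.12 to 0.42 and for IGF1R -0.30 to 0.46. The IRS2 value turned to -0.21 without DOX replicate 1.

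Beyond the members, 87 other genes of the pathway were listed by role, of which 79 matched a symbol and 75 were tested. In DOX and MYO against Hyper, 16 of 75 were called higher and 9 lower, where 15.8% and 16.9% of all genes were, with a median log2 fold change of 0.00 beside 0.03 over all genes. Against Control by file label the counts were 17 higher and 15 lower for DOX (21% and 21.1% of all genes), 16 and 16 for MYO (20.7% and 21.7%), 14 and 22 for RemoLV (23.1% and 24%), and 0 and 0 for Hyper (0%). By table name they were 14 and 8 for DOX (15% and 14.6%), 16 and 5 for MYO (14.8% and 14.4%), 23 and 14 for RemoLV (24% and 23.2%), and 13 and 6 for Hyper (18.7% and 17.2%).

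Among binding proteins and their proteases, 4 of 9 were called higher and 1 lower in DOX and MYO against Hyper (15.8% and 16.9% of all genes). IGFBP2, which binds IGFs in the extracellular space, was higher by 1.66 ± 0.48 (adjusted p = 0.0133), with means of 32.2 ± 18.7 CPM in DOX (SD, n = 5), 24.1 ± 12.5 in MYO (n = 5) and 8.80 ± 3.42 in Hyper (n = 3). The call was lost without Hyper replicate 1 (adjusted p = 0.0894) or 2 (0.0585). STC1, an inhibitor of the IGFBP protease PAPPA, was lower by -1.20 (adjusted p = 0.0134), a call lost without Hyper replicate 2 (0.128), with a replicate block (0.0772) and with library totals (-0.93, adjusted p = 0.0536). Against Control, IGFBP2 was higher by 1.83 in DOX (adjusted p = 0.00881, with 2.44 by table name). In MYO it was higher by 1.40 (adjusted p = 0.0328), a call lost without any one of MYO replicates 1 and 5 and the 3 Control libraries (0.0565 to 0.104). IGFALS, which carries IGF complexes in serum, was higher in DOX by 0.94 (adjusted p = 0.0176), but by 0.02 by table name and with an adjusted p of 0.105 without Control replicate 3. PAPPA was lower in MYO by -1.60 (adjusted p = 0.0328), at a mean below 1 CPM, and was not called without any one of 5 libraries, MYO replicates 2, 3 and 4 and Control replicates 1 and 3 (0.0546 to 0.182), with a replicate block (0.111), with library totals (-1.10, adjusted p = 0.106), or by table name (0.186). In RemoLV against Control, IGFBP5 was higher by 2.15 (adjusted p = 0.000395) and STC1 lower by -2.06 (0.00239), and both signs turned by table name. Against Hyper the RemoLV values were 1.93 for IGFBP5 and -2.69 for STC1, but -0.23 (adjusted p = 0.795) and -0.63 (0.49) by table name, by which no gene was called in RemoLV against Hyper.

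Of the other receptors, neither IGF2R, which clears IGF2, nor INSRR was called in any comparison by file label. By table name IGF2R was called higher than Control in MYO, by 0.57 (adjusted p = 0.0337). Of 12 adaptors and receptor regulators, 3 were called higher and 2 lower in DOX and MYO against Hyper, near the 15.8% and 16.9% of all genes. SH2B2, an adaptor of the insulin receptor, was higher by 0.69 (adjusted p = 0.0252), and not called without Hyper replicate 1 (0.152) or 2 (0.112) or with a replicate block (0.0903). GRB14, which inhibits the insulin receptor, was lower by -0.66 (adjusted p = 0.00145). SH2B2 was also higher than Control in DOX by 1.1 (adjusted p = 0.00202, with 0.91 by table name) and in MYO by 1.00 (0.00396, with 1.02 by table name). PTPN1, the phosphatase that dephosphorylates the insulin receptor, was lower than Control by -0.83 in DOX (adjusted p = 0.000142) and -1.52 in RemoLV (1.04e-06), with 0.66 and 1.52 by table name, and lower in RemoLV than in Hyper by -0.76 (0.00107, with 0.77 by table name). GRB14 was lower in RemoLV than in Hyper by -1.19 (adjusted p = 6.36e-05, with -0.09 by table name). SOCS3, a cytokine-induced inhibitor, ranged from 2.38 to 90.9 CPM within Control, and was at -3.03 in MYO (adjusted p = 0.00796, with 0.29 by table name) and -3.31 in RemoLV (0.0135, with 3.31 by table name), for both of which DESeq2 gave no adjusted p.

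Of 15 PI3K and lipid phosphatase genes, 4 were called higher and 1 lower in DOX and MYO against Hyper (15.8% and 16.9% of all genes). PIK3R5, a regulatory subunit of PI3K gamma, was higher by 1.01 (adjusted p = 0.0057), and PIK3C2A, a class II PI3K, was lower by -0.87 (0.00094). Against Control by file label, 7 were higher and 2 lower in DOX (21% and 21.1% of all genes). The counts were 6 and 2 in MYO (20.7% and 21.7%), and 7 and 2 in RemoLV (23.1% and 24%). By table name, 0 were higher and 2 lower in DOX (15% and 14.6%). There the counts were 0 and 1 in MYO (14.8% and 14.4%), and 2 and 7 in RemoLV (24% and 23.2%). PIK3CD, the leukocyte catalytic subunit, was higher in DOX by 1.61 (adjusted p = 0.00164, with 0.19 by table name) and INPP4B, a lipid phosphatase, lower by -1.34 (0.000775, with 0.36 by table name). PIK3C2A was lower in MYO by -1.42 (adjusted p = 3.02e-05, with -0.41 by table name). PIK3IP1, an inhibitor of PI3K, was higher in MYO by 1.39 (adjusted p = 0.0113; 0.0644 without Control replicate 1 and 0.0738 without replicate 3, with -0.73 by table name) and in RemoLV by 2.15 (0.000787, with -2.15 by table name). INPP4A was higher in RemoLV than in Control by 2.17 (adjusted p = 4.7e-06, with -2.17 by table name) and than in Hyper by 2.33 (3.03e-06, with 0.15 by table name), and INPPL1 than in Hyper by 0.60 (0.00488, with 0.10 by table name).

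Among AKT kinases and their regulators, 2 of 16 were called higher and 1 lower in DOX and MYO against Hyper (15.8% and 16.9% of all genes). PDPK1, the kinase that activates AKT, was higher by 0.48 (adjusted p = 0.00128) and RPTOR, a subunit of mTOR complex 1, by 0.40 (0.00509; 0.06 without Hyper replicate 1). RHEB, the activator of mTOR complex 1, and PPP2CA, a catalytic subunit of the phosphatase PP2A, were lower than Control by -0.73 and -0.69 in DOX and -0.74 and -0.85 in MYO, with positive values by table name, and PPP2CA was lower in RemoLV by -1.07, with 1.07 by table name. With library totals the DOX values of RHEB and PPP2CA and the MYO value of RHEB were not called. TRIB3, a pseudokinase that binds AKT, was lower in RemoLV by -2.99 (adjusted p = 0.00835, with 2.99 by table name), at only 0.211 to 0.535 CPM in RemoLV. RHEB and MAPKAP1, a subunit of mTOR complex 2, were lower in RemoLV than in Hyper by -0.64 and -0.60, but the values were 0.39 and 0.19 by table name, and neither was called with library totals.

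Of 19 effectors, 2 were called higher and 4 lower in DOX and MYO against Hyper, near the 15.8% and 16.9% of all genes. PDK4, which inhibits the pyruvate dehydrogenase complex and is known as a FoxO target, showed the largest difference among the listed genes in that comparison, -3.52 ± 0.48 (adjusted p = 3.29e-05). Its level was 34.9 to 285 CPM in DOX, 34.2 to 219 CPM in MYO, 868 to 2614 CPM in Hyper, 400 to 1117 CPM in RemoLV and 1901 to 3547 CPM in Control. PDK4 was thus lower in each of the 10 anthracycline libraries than in each of the other 9, and lower than Control by -4.27 in DOX (adjusted p = 5.51e-05) and -4.49 in MYO (3.9e-05). By table name these were -2.49 (adjusted p = 0.00378) and -2.90 (0.00128). TXNIP, which restrains glucose uptake, was lower than Hyper by -1.29 (adjusted p = 0.0051). FOXO3 was lower than Control by -0.75 in DOX (adjusted p = 0.00415) and -0.69 in MYO (0.00687; 0.0713 without Control replicate 3), but was not called by table name or with library totals. SLC2A4, which encodes GLUT4, was at 68.6 to 93.0 CPM in RemoLV and at 225 CPM or more in the other groups, and its RemoLV log2 fold change was -1.64 against Control (adjusted p = 9.5e-07, with 1.64 by table name) and -2.0 against Hyper (1.39e-07, with -0.36 by table name). CCND1, the cyclin of G1 phase, was lower in RemoLV by -1.89 against Control (adjusted p = 1.98e-06, with 1.89 by table name) and -1.51 against Hyper (2.25e-05, with 0.38 by table name). Of the RNA-binding proteins, IGF2BP3 was higher in DOX and MYO than in Hyper by 0.76 (adjusted p = 0.0225; 0.0658 without Hyper replicate 1, 0.102 without replicate 2 and 0.0799 with a replicate block) and was at -0.85 in RemoLV against Control (0.0184, with 0.85 by table name), a call lost without RemoLV replicate 1 (0.0786) or 2 (0.0547) or Control replicate 2 (0.136), in a fit of only these groups (0.0906), and with library totals (-0.40, adjusted p = 0.333).

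**Figure D3:**
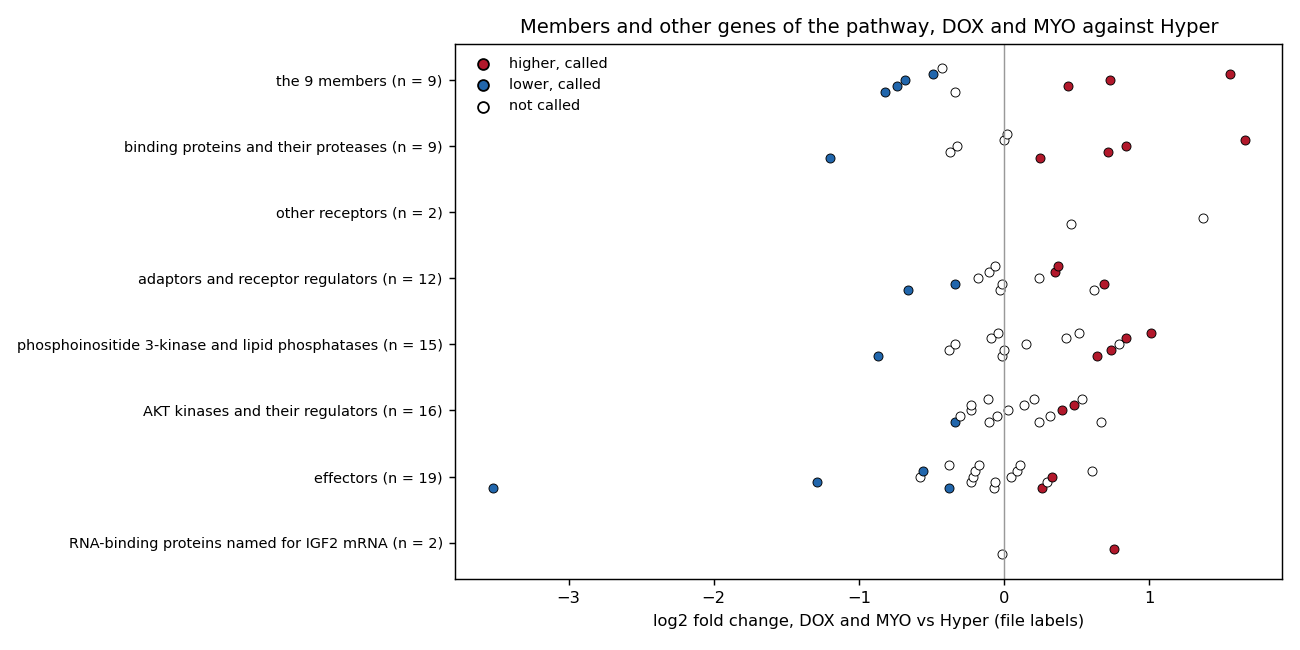
Log2 fold changes of DOX and MYO together against Hyper for the 9 members and 75 other genes of the pathway by role, each point a gene, filled red where called higher and blue where called lower. The members hold 3 red and 4 blue points, and the lowest point of all is PDK4 at -3.52.

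For the members whose group means ranged over at least 1 on the log2 scale, the genes with the most similar profile over the 5 groups were found by the root-mean-square distance of centred group means of log2 CPM. The INSR profile was nearest to LOC102161418 (0.08), ANK3 (0.09) and ACSS3 (0.10), and that of IGF1R to STPG4 (0.07), FBXW7 (0.10) and HSPE1 (0.11). ANK3, which encodes ankyrin G, had means of 293 CPM in DOX, 253 in MYO, 159 in RemoLV, 424 in Hyper and 736 in Control, the order seen for INSR. PIK3R1 was nearest to NOP58 (0.03), CCAR1 (0.04) and LOC106505010 (0.04). IRS2 was nearest to ROBO1 (0.05), RNF223 (0.09) and MCAM (0.11), and MCAM, a cell adhesion molecule of vessels, had means of 146, 139, 59.8, 50.9 and 67.5 CPM in the same order of groups. IRS1 was nearest to SLC19A2 (0.05), SNORA44 (0.06) and ERAP1 (0.06), and IGF1 to SCAMP1 (0.05), RBMS3 (0.07) and ACSL4 (0.07). SNORA44 had group means of only 0.186 to 0.62 CPM. These distances describe 5 group means and carry no test.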

How the data were processed

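RNA-seq counts of myocardium from 19 pigs were used, with 1 library per pig. The authors aligned read pairs to Sscrofa11.1 with STAR and counted them by strand per Ensembl gene with HTSeq 0.11.1, and the deposited counts are whole numbers without normalization. The log2-scale expression columns of the table deposited by the authors were used only to match sample names and to find gene symbols, and the fold changes and p-values in it, which hold the authors' comparisons, were not used.

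In R 4.3.3, counts were scaled by TMM and tested with the edgeR 4.0.16 quasi-likelihood test in 1 model of 5 groups, with Benjamini-Hochberg adjustment over the 13552 genes kept by filterByExpr. Standard errors were the absolute log2 fold change divided by the square root of the quasi-likelihood F. The 95% intervals were built from them with a t quantile on the total degrees of freedom. CPM values are TMM-scaled. The same fit with the table names, DESeq2 1.42.0, RLE scaling, other filters, a replicate block, fits of only the groups compared, leaving out the libraries labelled RemoLV, and leaving out each library were tried as well, and so was scaling to library totals, which was chosen after seeing the data. On counts simulated for DOX against Control, the procedure recovered 72.7% of the genes changed by 1 on the log2 scale and 88.9% of those changed by 2, with 7 false calls among 13285 genes, and for RemoLV against Control 63.3% and 88.8%, with 11 false calls among 13290 genes. In the simulation for DOX, 99 genes were changed by 1 and 99 by 2, and all other genes had the same mean in every group. In the data 42.1% of all genes were called in DOX against Control. The simulations therefore cannot give the rate of false calls when many genes differ or the scaling shifts. Promoter windows and positions came from the RefSeq annotation of Sscrofa11.1.

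Named genes were all 9 members, for each pathway list and comparison the 2 called genes with the largest absolute log2 fold change, and the 3 genes nearest to each member with a range of at least 1. INSRR, IGF2R, ventricular, atrial and Y-linked genes and repeat mentions of a gene named in another comparison were added for description. The members and lists were chosen with earlier results of these data known. Labels give 1 pig per library, and p-values measure the spread between these pigs.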

Additional observations from a re-analysis of the deposited data

Results flagged for a closer look

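IRS2 in DOX replicate 1 stood far from the other libraries of its group, at 259.6 CPM against 40.2 to 71.8 CPM in the other 4. Its gap to the nearest library was 0.856 of the range of the group, above the critical value of 0.71 for 5 libraries. The same test was made in 18 sets of 5 libraries (9 members in DOX and in MYO), of which 1 was flagged, and about 1 in 20 such sets is flagged by chance. Groups of 3 libraries were not tested. The cause was not tested.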

How the results depend on the processing

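DESeq2, RLE scaling and fits without a filter left all 63 log2 fold changes of members (9 members, 7 comparisons) with their direction and call, and leaving the libraries labelled RemoLV out of the model left all 45 that could be computed. Fits of only the groups compared left 60 of 63: against Control, IGF1 (adjusted p = 0.0611) and IRS2 (0.0801) in DOX were no longer called, and IRS2 in MYO was (0.0146).

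The table names turned 30 of 63. Against Control these were, in DOX, INSR (1.11), IGF1R (0.56), PIK3R1 (0.24) and AKT2 (-0.24), and in MYO, INSR (0.86), IGF1R (0.41), PIK3R1 (0.29) and AKT2 (-0.26). In RemoLV all 9 turned, to 2.46 (INSR), -0.36 (IGF1), 1.90 (IGF1R), -0.09 (IGF2), 0.60 (IRS1), 0.36 (IRS2), 0.69 (PIK3CA), 1.11 (PIK3R1) and -0.66 (AKT2). In Hyper, INSR (1.33), IGF1R (1.31), IRS1 (0.14), IRS2 (0.02), PIK3CA (0.28) and PIK3R1 (1.00) turned. In RemoLV against Hyper, INSR (1.13), IGF1R (0.59), IRS1 (0.46), IRS2 (0.34), PIK3CA (0.41) and PIK3R1 (0.11) turned, and in DOX against MYO PIK3R1 (-0.05). The number of members called became 6 for DOX, 4 for MYO, 4 for Hyper and 0 for RemoLV against Hyper. In RemoLV against Control the exchange of names itself turns every sign, and DOX and MYO against Hyper holds the same libraries under both sets of names, while the other comparisons hold other libraries.

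With library totals, 7 values turned: IRS2 in RemoLV (0.18) and PIK3R1 (0.03) and AKT2 (0.13) in Hyper against Control, and IGF2 (0.33), IRS1 (0.21), IRS2 (0.32) and PIK3CA (0.07) in RemoLV against Hyper. With at least 10 counts in every library, IGF2 (0.03) and IRS2 (0.02) turned in RemoLV against Hyper, and IGF1 was called there (0.71, adjusted p = 0.0457). None of the values that turned was called by the edgeR test with TMM scaling. Library totals also ended 8 calls and added 5.

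Leaving out 1 library at a time turned 15 values, none of them called. The ranges over the libraries left out were as follows.
Against Control, IRS1 in MYO ran from -0.04 to 0.21, IGF2 in RemoLV from -0.02 to 0.21, and PIK3R1 in Hyper from -0.42 to 0.03 and AKT2 from -0.05 to 0.00. In DOX against MYO, INSR ran from -0.04 to 0.42, IGF1R from -0.04 to 0.22 and IRS2 from -0.21 to 0.77. In RemoLV against Hyper, IGF2 ran from -0.13 to 0.08, IRS1 from -0.26 to 0.04 and IRS2 from -0.15 to 0.09.
Members called ranged from 6 to 9 in DOX, 6 to 8 in MYO, 6 to 6 in RemoLV, 0 to 4 in Hyper, 0 to 0 in DOX against MYO, 3 to 5 in RemoLV against Hyper and 4 to 7 in DOX and MYO against Hyper. The 4 in Hyper arose without Control replicate 2 and 1 without Hyper replicate 1, and the 4 in DOX and MYO against Hyper without Hyper replicate 1.
Over all genes, the number called in Hyper against Control rose from 0 to 4856 with the table names, 2538 without Control replicate 2, 773 without Hyper replicate 1, 317 with DESeq2, 6 without a filter and 1 in the fit of only these groups. In RemoLV against Hyper it fell from 4818 to 0 with the table names, in DOX against MYO it was 2 with DESeq2, in DOX against Control it was 3787 without Control replicate 3 in place of 5704, and in DOX and MYO against Hyper 2530 without Hyper replicate 1 in place of 4422.

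A replicate block changed 5 calls and no direction: IRS2 in MYO became called (1.27, adjusted p = 0.0261), and IGF1 and IRS1 in DOX and IGF1 and IGF2 in MYO were no longer called. The members called with the block were 7, 6, 6, 0, 0, 4 and 7 in the order above, beside 35.4%, 35.4%, 45.0%, 0%, 0%, 33.2% and 26.6% of all genes. Deviations from the group means correlated with r of -0.246 to 0.242 between libraries with the same number (32 pairs, 4 over 0.1) and of -0.218 to 0.278 between others (110 pairs), and 4 of 19 libraries correlated best with one of their own number, so the numbers were not taken to pair animals.

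Depth was lowest for IGF1, at 35 to 180 counts per library, and 3 of the groups held 3 pigs each. The part of either in the errors was not tested.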
